A study of Homo sapiens with 15 samples.

Results

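The genes described here encode the proteins of the cytosolic ribosome. They were chosen by symbol, as RPS or RPL followed by a number and at most one of the letters A, X and L, together with RPLP0, RPLP1, RPLP2 and RPSA, and had to hold at least 150 reads summed over the 15 libraries. Of 60671 genes in the count table, 81 carry such a symbol and 79 were members, 32 of the small subunit and 47 of the large subunit. RPL36A had the fewest reads of the members, 854, and the genes left out were RPL3L with 29 reads and RPL10L with 26 reads. The members lie on 21 chromosomes, and all 79 also passed the expression filter of the tests.

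All libraries came from HT115, an established human colorectal cancer line, in which doxycycline at 0.5 µg/ml switched on a transgene for 24 h. The 5 groups of 3 libraries differ in the induced protein, which was GFP in the control, V5-tagged wild-type SOX9 in SOX9_WT, or a V5-tagged mutant of this transcription factor in M228, M303 and M379. The control cells also received doxycycline. The series text calls M303 truncated, and no source used here explains the other mutant names. By the labels each group holds 3 libraries, although the series text counts 6 experiments done in duplicate. Whether they are separate cultures is not labelled, so every p-value reflects variation among libraries that may be only technical.

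A ribosome reads an mRNA on its small subunit and joins amino acids on its large subunit. Most of its proteins are needed in equal number in every particle, and a cell makes them together. In vertebrates their mRNAs typically begin with a C followed by a run of pyrimidines, the 5' terminal oligopyrimidine (TOP) tract, through which the mTOR pathway and the RNA-binding protein LARP1 control their translation and stability. Dividing cells, including those of colorectal tumours, make many ribosomes, and the mRNAs of ribosomal proteins are among the most abundant of the cell.

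The start sites below are shown because the TOP tract is the feature that most members have in common outside their protein products. They come from the RefSeq promoter table for GRCh38.p14, each window holding 10 bases before the listed start and 20 bases from it on, 5' to 3' on the transcribed strand. Capitals mark the tract, here defined as a C at the listed start followed by at least 4 further C or T. RPLP0, RPLP1 and RPLP2 form the stalk of the large subunit, RPS6 is the S6 kinase substrate of the small subunit, RPL39 is a small protein of the peptide exit tunnel, and RPS27 has the paralog RPS27L. RPL22, RPS27L and RPS28 are shown because they lie at the low or high end of the members' fold changes against SOX9_WT below. None of these differences passed the test used there.
RPLP0 (chr12:120201092-120201121, minus strand): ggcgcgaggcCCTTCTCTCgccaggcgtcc
RPLP1 (chr15:69452808-69452837, plus strand): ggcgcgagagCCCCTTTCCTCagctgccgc
RPLP2 (chr11:809957-809986, plus strand): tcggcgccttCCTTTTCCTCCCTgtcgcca
RPS6 (chr9:19380217-19380246, minus strand): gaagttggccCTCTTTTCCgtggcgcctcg
RPL39 (chrX:119791611-119791640, minus strand): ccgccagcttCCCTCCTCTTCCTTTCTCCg
RPS27 (chr1:153990752-153990781, plus strand): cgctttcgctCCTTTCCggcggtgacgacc
RPL22 (chr1:6199576-6199605, minus strand): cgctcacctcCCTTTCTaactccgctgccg
RPS27L (chr15:63157458-63157487, minus strand): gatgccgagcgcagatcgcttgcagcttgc
RPS28 (chr19:8321486-8321515, plus strand): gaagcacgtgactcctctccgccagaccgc

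Of the 79 members, 63 have a listed start, and 46 of these 63 (73.0%) have a start with a tract as defined. Over all 35116 starts of the table the share is 4.07%, and over its 27305 symbols 5.14%. The tract was 8 bases long in the median member that has one, and that of RPL39 was the longest at 19 bases. Among translation factors and other genes known for TOP mRNAs, 13 of 14 with a listed start have a tract, compared with 3 of 28 ribosome assembly factors and 6 of 69 proteins of the mitochondrial ribosome, which is made from a separate gene set. RPS27L and RPS28 have no tract at the listed start, and neither do RPS4X, RPL3, RPL4, RPL15 and RPL19. A missing match says only that these letters do not stand at that listed position.

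Library totals ranged from 3054755 reads in GFP library 1 to 31704249 reads in M303 library 1, and the level of 3 reads, the limit for a gene without reads, ran from 0.0896 to 0.912 CPM, the count scaled to a common library size by TMM. The targeted gene SOX9 stood at 97.6 to 158 CPM in GFP, at 186 to 243 CPM in SOX9_WT and at 1900 to 3039 CPM in the 9 mutant libraries. A mutant therefore differs from SOX9_WT in the reads counted at the SOX9 gene as well as in sequence. How many of these reads came from the transgene was not determined, and SOX9 protein was not measured here. All 9 markers of colorectal epithelium were expressed and tested, for instance EPCAM at 848 to 1117 CPM, but their summed share of reads was uneven, from 1.12% in GFP library 1 to 2.34% in GFP library 2, the highest of the 15. Of the 9, none was called in the fit of all libraries, and without GFP library 2 the keratin gene KRT20 was called lower in M303 (658 ± 67.9 CPM, edgeR adjusted p = 0.0323) and M379 (641 ± 31.4 CPM, adjusted p = 0.0433) than in SOX9_WT (1098 ± 207 CPM, SD, n = 3). Of 14 markers of stromal, immune, endothelial and red blood cells, 9 were too low to be tested. Among these were VIM at 0 to 0.192 CPM and PTPRC at 0 to 0.0671 CPM. Of the 5 tested, only LYZ and COL3A1 were called in any contrast, with or without GFP library 2. LYZ, a lysozyme gene of myeloid and intestinal secretory cells, was called lower than in SOX9_WT (2992 ± 500 CPM) in M228 (828 ± 189 CPM, edgeR adjusted p = 0.0047) and M303 (1102 ± 397 CPM, adjusted p = 0.0296, SD, n = 3), and without GFP library 2 it was also called lower in M379 (1185 ± 224 CPM, adjusted p = 0.0241), while COL3A1 was called higher in M228 (1.25 ± 0.546 against 0.187 ± 0.0872 CPM, adjusted p = 0.0486). The part of these markers in the members' values was not tested. The summed level of these markers without VIM, LYZ and CD68 was 8.98 to 13.4 CPM in 14 libraries and 35 CPM in GFP library 2. Which of the summed markers made up the 35 CPM was not examined. GFP library 2 stood apart from the other 14, and values are given with and without it below. In bulk samples, a different mix of cells and a different amount of RNA per cell cannot be told apart.

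The mean level over 15 libraries ranged from 3.54 CPM for RPL36A to 1606 CPM for RPS2, with a median of 520 CPM over the members and 69 of 79 members above 100 CPM. RPS2, the most abundant, was followed by RPLP0 at 1600 CPM, RPL4 at 1572 CPM and RPS6 at 1453 CPM. Per kilobase of the exons in the count table, RPS12 stood highest at 1514 CPM per kb, followed by RPL19 at 721 CPM per kb. With the length of the principal transcript in place of all exons, RPL19 came first at 1722 CPM per kb, then RPS18 at 1717 and RPS2 at 1630 CPM per kb. The order of these genes thus changes with the length used, and differences of this size between genes were not ranked further.

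In all, 6 members had fewer than 10000 reads, and their counts are uncertain. They include RPL36A, RPS10, RPL39L, RPL17 and RPL39. Per kilobase of exon, RPL36A was lowest at 0.894 CPM per kb, and RPS10 stood at 3.98 CPM per kb. RPL36A, RPS10 and RPL17 overlap annotated readthrough genes that join them to a neighbour. Of their exon bases, 22.4%, 40.3% and 35.3% are shared with any other gene. In RPL36A most of this is overlap on the opposite strand, 14.05% of its exon bases. Counting with default options gives no read to a gene where 2 genes overlap, nor any read that maps to several places, and ribosomal proteins have many near-identical processed pseudogenes. In addition RPL10 shares 53.4% of its exon bases with other genes, RPS2 25.9%, RPL30 21.8% and RPS28 20.6%. For RPL10, RPL30 and RPS28 the overlap of over 20% is with genes on the opposite strand, and the counts were made without strand.

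Within the 14 libraries other than GFP library 2, the highest library exceeded the lowest by a factor of 1.32 in the median member. The factor was above 1.5 in 9 of 79 members, and it was not computed for other genes. RPS4X, the X-linked S4 protein of the small subunit, was the steadiest of the members with at least 10 CPM, at 689 to 774 CPM. RPS26, a small-subunit protein near the mRNA exit, was among the least steady, at 96.3 to 153 CPM, and RPL13 of the large subunit ranged from 624 to 1005 CPM. In SOX9_WT, RPS26 stood at 96.3, 116 and 136 CPM in libraries 1, 2 and 3, and RPL13 at 875, 628 and 624 CPM. The libraries of a group thus did not move all members in parallel.

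The members together took 4.67%, 7.18% and 3.99% of all reads in GFP libraries 1, 2 and 3. The shares were 4.33%, 3.68% and 3.90% in SOX9_WT, 4.12%, 4.37% and 4.27% in M228, 4.88%, 4.23% and 4.22% in M303, and 4.42%, 4.41% and 4.25% in M379. GFP library 2 was the only one outside the range of 3.68% to 4.88%, and the groups otherwise overlapped, as the plot of read shares shows. The exact (Clopper-Pearson) 95% intervals of these shares reach at most 0.0237 percentage points to either side, which covers counting error only. The group means were 5.28% ± 1.68 in GFP, 3.97% ± 0.328 in SOX9_WT, 4.25% ± 0.123 in M228, 4.44% ± 0.381 in M303 and 4.36% ± 0.0929 in M379 (SD, n = 3 each). For GFP libraries 1 and 3 alone the mean was 4.33%.

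**Figure D1:**
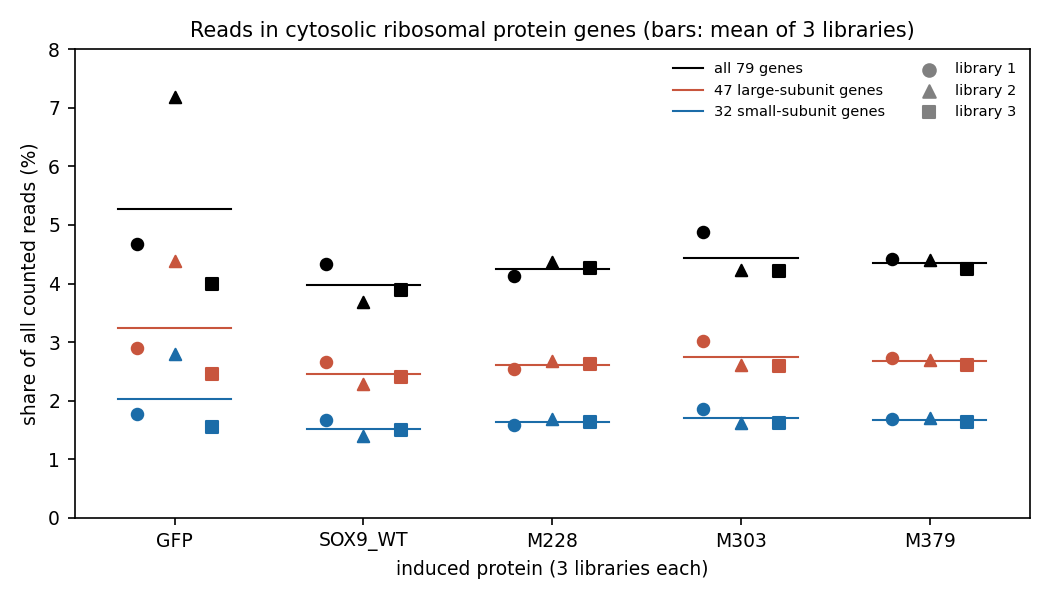
Share of all counted reads (y axis, %) that fell in the 79 ribosomal protein genes, and in the 47 large-subunit and 32 small-subunit genes, for the 3 libraries of each group (x axis), with bars at the group means. GFP library 2 stands at 7.18%, and the other 14 libraries lie between 3.68% and 4.88%.

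Large- and small-subunit genes kept their proportion. Reads of large-subunit genes per read of small-subunit genes numbered between 1.59 and 1.64 in the 14 other libraries and 1.57 in GFP library 2. In that library 2.79% of reads fell in small-subunit genes and 4.39% in large-subunit genes, against 1.40% to 1.86% and 2.28% to 3.02% elsewhere. Reads assigned to pseudogenes of ribosomal proteins stood at 0.197% in GFP library 2 and 0.0991% to 0.152% in the others.

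GFP library 2 held the highest value of all 15 libraries for 77 of 79 members. Among all 9422 genes of at least 10 CPM this was so for 32.7%. Genes like the members came near their share. It was 88.2% over the 363 other genes of that level with a principal transcript under 1 kb. At 4 to 8 kb it was 7.89% of other genes. Over 70 genes of the mitochondrial ribosome it was 91.4%, and over 28 pseudogenes of ribosomal proteins 92.9%. RPL36A, one of the poorly counted members, was not among the 77. The log2 ratio of GFP library 2 to the mean of GFP libraries 1 and 3 had quartiles of 0.75 and 1.03 over the members of at least 10 CPM. Over all other genes of that level the quartiles were -0.64 and 0.45. Over the 363 of these with a principal transcript under 1 kb they were 0.72 and 1.10, near those of the members. The choice of this library for a separate account was made with its values known, so these values are a description without a test.

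RPL39 had the highest ratio, 2.80, with 28.6, 74.7 and 24.8 CPM in GFP libraries 1, 2 and 3. RPL35, which sits near the exit of the peptide tunnel, followed with 482, 1133 and 475 CPM, a ratio of 2.37. RPLP2 stood at 544, 1285 and 566 CPM, a ratio of 2.32. Each of these had its other 2 GFP libraries close together. At the other end RPL22, an RNA-binding protein of the large subunit that is dispensable for translation, stood at 105, 140 and 113 CPM, a ratio of 1.28. RPL4, one of the largest ribosomal proteins, stood at 1875, 2175 and 1442 CPM, a ratio of 1.31, and RPL30 at 206, 298 and 203 CPM, a ratio of 1.46. For RPL4 the gap between GFP libraries 1 and 3 was larger than that between libraries 1 and 2.

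Short transcripts in general were high in GFP library 2. Among genes that are not members, the median log2 ratio of GFP library 2 to GFP libraries 1 and 3 was 0.93 where the principal transcript is under 1 kb (363 genes), 0.57 at 1 to 2 kb, 0.086 at 2 to 4 kb, -0.55 at 4 to 8 kb and -1.07 at 8 kb or more. The members of at least 10 CPM had a median of 0.93 over 76 genes. By the same length classes up to 8 kb their medians were 0.95 (36 genes), 0.96 (21 genes), 0.81 (13 genes) and 0.91 (6 genes). Members with short annotated transcripts thus lay at the level of other short transcripts, and members with long annotated transcripts lay above other genes of that length. The part of transcript length in the members' ratios was not tested further. The annotated principal transcript need not be the form these cells make.

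**Figure D2:**
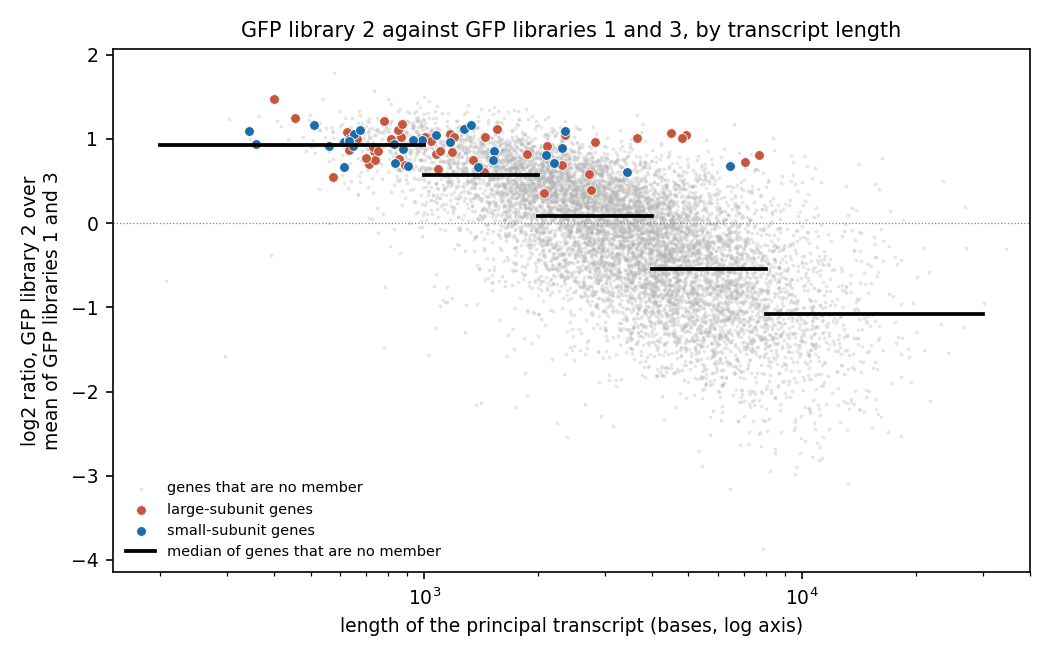
Log2 ratio of GFP library 2 to the mean of GFP libraries 1 and 3 (y axis) against the length of the principal transcript in bases (x axis, log scale) for genes of at least 10 CPM, with large-subunit members in red, small-subunit members in blue, other genes in grey and black bars at the medians of the other genes by length class. The bars fall from 0.93 under 1 kb to -1.07 at 8 kb or more, and the members stay above 0 at every length.

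Genes that share a feature with the members did not all share their ratio. The translation factors and other TOP mRNA genes had a median log2 ratio of 0.30 over 21 genes. Of the 14 in this list with a listed start, 13 have a tract. The lists were not matched for transcript length, and the part of the tract in the ratios was not tested. EEF1A1, the elongation factor that brings aminoacyl-tRNA to the ribosome, stood at 3740, 3866 and 3191 CPM in GFP libraries 1, 2 and 3. Members with a tract had a median of 0.98 (46 genes) and members whose listed starts lack one had 0.85 (17 genes). The median was 0.71 for the mitochondrial ribosome (70 genes), 0.67 for snoRNA host genes (13 genes), 0.84 for pseudogenes of ribosomal proteins (28 genes), 0.21 for ribosome assembly factors (34 genes) and 0.42 for the protein genes of the mitochondrial genome (13 genes). FAU, which encodes a ribosomal protein fused to a ubiquitin-like protein, had a ratio of 2.03, whereas RPL7L1, a nucleolar paralog of RPL7, had 0.92.

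Against this background the induced proteins were compared. Each contrast came from 1 edgeR quasi-likelihood fit of all 15 libraries and 16160 genes, with p-values adjusted by the Benjamini-Hochberg method, and a gene was called at an adjusted p under 0.05. The 4 contrasts against GFP share the GFP libraries and the 3 against SOX9_WT share the SOX9_WT libraries, so within each family they are not independent. No member was called in any of the 7 contrasts, by edgeR or by DESeq2. Without the filter on low counts edgeR called RPL39 and RPLP2 lower in SOX9_WT than in GFP (adjusted p = 0.0374 and 0.0167) and RPL39 lower in M228 than in GFP (adjusted p = 0.0322). Of the 37339 genes in that fit, 0.482% and 0.755% were called in these contrasts. In the filtered fit without GFP library 2 these 3 fold changes were 0.0089, -0.16 and 0.013 on the log2 scale. Over all 16160 genes of the filtered fit of all libraries, the edgeR calls were 0.0309% for SOX9_WT against GFP, 0.241% for M228 against GFP, 0.118% for M303 against GFP and 0.0371% for M379 against GFP. Against SOX9_WT they were 0.569% for M228, 0.384% for M303 and 0.124% for M379.

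With GFP library 2 included, the members' fold changes against GFP lay below 0 as a group in every contrast. The members' median was -0.47 for SOX9_WT, -0.33 for M228, -0.31 for M303 and -0.32 for M379 on the log2 scale, beside all-gene medians between -0.0012 and 0.012. The members below 0 numbered 79, 79, 79 and 77. An unadjusted edgeR p under 0.05 was reached by 53 members in SOX9_WT (10.7% of all genes), 15 in M228 (9.38%), 13 in M303 (7.80%) and 19 in M379 (6.77%), and the lowest adjusted p values were 0.431, 0.379, 0.474 and 0.588. Without GFP library 2 the medians were -0.092, 0.035, 0.049 and 0.032, the members below 0 numbered 67, 27, 29 and 34, and those with an unadjusted p under 0.05 numbered 1, 2, 7 and 8, beside 6.23%, 8.91%, 9.42% and 11.4% of all genes. No member was called in that fit, where 0%, 0.228%, 0.102% and 0.0481% of all genes were. The direction of the mutant medians therefore rests on that 1 library.

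**Figure D3:**
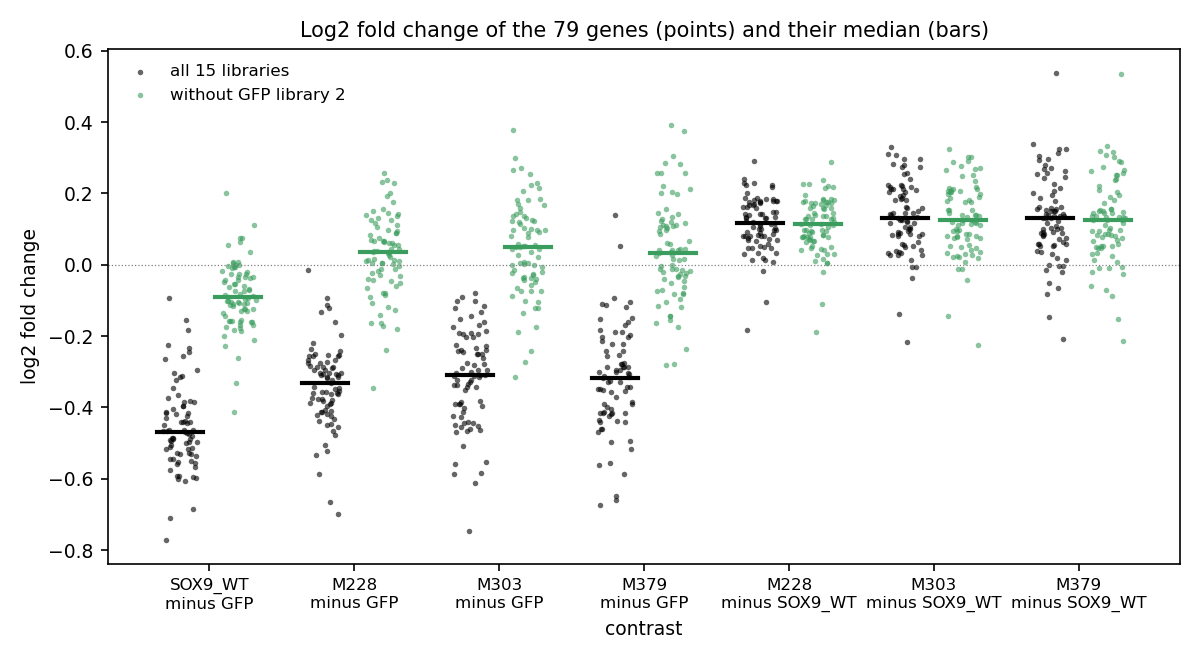
Log2 fold changes (y axis) of the 79 genes in the 7 contrasts (x axis), from the fit of all 15 libraries in black and from the fit without GFP library 2 in green, with bars at the medians. The black medians against GFP lie between -0.47 and -0.31 and the green ones between -0.092 and 0.049, whereas the medians against SOX9_WT lie between 0.11 and 0.13 in both fits.

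All 3 libraries of SOX9_WT lay below all 3 GFP libraries for 20 members (5.15% of all genes), for 2 members in M228 (4.22%), 7 in M303 (3.87%) and 4 in M379 (3.84%), and no member lay above GFP in this way (6.6%, 5.32%, 5.5% and 4.9% of all genes). RPL22 was the only member in all 4 sets, with 105, 140 and 113 CPM in GFP and 81.2 to 104 CPM in the other 12 libraries. Its fold changes against GFP were -0.26 ± 0.14 in SOX9_WT, -0.36 ± 0.14 in M228, -0.39 ± 0.14 in M303 and -0.40 ± 0.14 in M379 (log2, SE), and without GFP library 2 they were -0.13, -0.24, -0.27 and -0.28, with edgeR adjusted p values of 0.384 or more. RPL26, which binds near the tunnel exit and is known as a regulator of p53 translation, was in 3 of these sets, as was RPL10. The 4 sets share the same 3 GFP libraries. How many of all genes lay in 3 or 4 sets was not counted, so these overlaps have no background share. RPL26 held 225, 455 and 224 CPM in GFP and 169 to 224 CPM elsewhere, and in M379 its fold change was -0.66 ± 0.22 with all libraries and -0.24 ± 0.12 without GFP library 2 (edgeR adjusted p = 0.588 and 0.463).

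The other members at the low end against GFP were RPL39, RPLP2 and RPL21. RPL39 was 26.3, 25.4 and 27.6 CPM in SOX9_WT, 21.5, 32.3 and 26.6 in M228, 26.2, 31.7 and 28.8 in M303 and 26.4, 28.5 and 26.3 in M379. These 12 libraries lay on both sides of GFP libraries 1 and 3 (28.6 and 24.8 CPM) and all far below GFP library 2. Its log2 fold changes against GFP of -0.71, -0.70, -0.58 and -0.67 became 0.0089, 0.013, 0.13 and 0.040 without GFP library 2. RPL21, a large-subunit protein, stood at 247, 478 and 232 CPM in GFP and at 192 to 237 CPM in the other groups. At the high end were RPL15, RPL17, RPL41, RPS23, RPL29, RPL7A and RPS27L, with fold changes between -0.31 and 0.14 against GFP. RPL41, which encodes a protein of very few amino acids, was 190, 336 and 202 CPM in GFP and 195 to 252 CPM elsewhere.

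Against SOX9_WT most members lay slightly higher in each mutant. The members' median was 0.12 for M228 on the log2 scale and 0.13 for both M303 and M379. Of 79 members, 76, 74 and 69 were above 0, beside 52.0%, 52.1% and 50.7% of all genes. The median standard error was 0.20, no member reached an unadjusted p under 0.05 in these contrasts (all genes 6.65%, 6.31% and 4.70%), and the lowest adjusted p was 0.9997, 0.968 and 0.979. The fit shares 1 estimate of the spread over all groups. Without GFP library 2 the medians were 0.11, 0.12 and 0.13, the median standard error was 0.093, and 7, 17 and 17 members had an unadjusted p under 0.05, beside 10.9%, 11.5% and 11.6% of all genes. Of these, 7, 16 and 16 were higher. The lowest adjusted p of a member was then 0.305, 0.149 and 0.177, while 1.62%, 1.32% and 0.535% of all genes were called.

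All 3 mutant libraries lay above all 3 SOX9_WT libraries for 4 members in M228 (7.12% of all genes), 31 in M303 (9.51%) and 27 in M379 (9.75%). In the opposite direction 1 member did so in each mutant, beside 8.61%, 9% and 9.48% of all genes. SOX9_WT library 2 had the lowest summed share of all libraries, 3.68%, and without 1 library at a time the medians ranged from 0.069 to 0.17 in M228, 0.094 to 0.16 in M303 and 0.081 to 0.16 in M379. The difference between the group means in CPM was smaller than the larger of the 2 groups' own ranges for 76 members in M228, 56 in M303 and 58 in M379. This count was not made over all genes, so it does not show whether the members differ from other genes in this respect.

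The members with the highest fold changes against SOX9_WT included RPS28, RPS2, RPS15, RPL36 and RPLP2. RPS28, a small protein next to the mRNA exit, stood at 270, 231 and 246 CPM in SOX9_WT, 261, 306 and 309 in M228, 333, 309 and 298 in M303 and 308, 343 and 292 in M379. The M303 and M379 libraries were all above SOX9_WT, and one M228 library was not. Its fold changes were 0.23, 0.33 and 0.34 with a standard error of 0.24, and without GFP library 2 they were 0.23, 0.32 and 0.33 with a standard error of 0.10 (edgeR adjusted p = 0.389, 0.149 and 0.177). In GFP libraries 1 and 3 it stood at 266 and 242 CPM.

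RPS2, at the mRNA entry of the small subunit, held 1415, 1258 and 1381 CPM in SOX9_WT, 1676, 1701 and 1644 in M303 and 1709, 1691 and 1634 in M379, a fold change of 0.31 ± 0.21 in each (log2, SE). M228 libraries at 1351, 1444 and 1602 CPM overlapped SOX9_WT. RPS15, which faces the decoding centre, stood at 321, 314 and 349 CPM in SOX9_WT and at 377 to 435 CPM in M303 and 382 to 429 CPM in M379, whereas M228 spread from 297 to 431 CPM. RPL36, a small large-subunit protein, was at 425, 382 and 395 CPM in SOX9_WT and at 427 or more in all 9 mutant libraries, and its fold changes were 0.24, 0.28 and 0.30 (SE 0.24). RPSA, the laminin receptor homolog of the small subunit, was at 487, 422 and 461 CPM in SOX9_WT and at 507 to 585 CPM in the 9 mutant libraries. Its fold changes were 0.22, 0.19 and 0.28 (SE 0.20), with edgeR adjusted p values of 0.312, 0.435 and 0.206 without GFP library 2.

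The stalk recruits translation factors to the ribosome. RPLP0, its base, stood at 1499, 2499 and 1480 CPM in GFP, 1510, 1300 and 1441 in SOX9_WT, 1423, 1497 and 1666 in M228, 1695, 1528 and 1597 in M303 and 1616, 1601 and 1654 in M379. RPLP1 held 759, 726 and 775 CPM in SOX9_WT and 753 to 981 CPM in the mutants, and RPLP2 523, 478 and 492 CPM in SOX9_WT and 531 to 700 CPM in the mutants. Fold changes against SOX9_WT were between 0.11 and 0.29 for the 3 genes in the 3 mutants, and none was called. Within a library, RPLP2 per RPLP0 was 0.514 in GFP library 2 and 0.329 to 0.437 in the others.

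RPL5 and RPL11, which form the 5S particle and bind MDM2 when ribosome assembly is disturbed, did not move together in every library. RPL5 was at 931, 1322 and 768 CPM in GFP, 752, 725 and 789 in SOX9_WT and 750 to 882 CPM in the mutants. RPL11 was at 759, 1602 and 823 CPM in GFP, 762, 698 and 744 in SOX9_WT and 702 to 898 CPM in the mutants. The ratio of RPL5 to RPL11 was 1.23, 0.825 and 0.933 in GFP libraries 1, 2 and 3, and 0.931 to 1.10 in the other 12 libraries. Fold changes against SOX9_WT lay between 0.030 and 0.14 for both genes, with standard errors of 0.16 and 0.21.

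Some members lay at or below their SOX9_WT level in the mutants. RPS6 was at 1557, 1297 and 1393 CPM in SOX9_WT and at 1401, 1548 and 1339 in M228, 1534, 1323 and 1285 in M303 and 1316, 1371 and 1325 in M379. All 3 mutants overlapped SOX9_WT, with fold changes of 0.014, -0.036 and -0.082 (SE 0.17). RPS3A, a small-subunit protein, was the 1 member with all M379 libraries below SOX9_WT, at 201, 204 and 196 CPM against 217, 207 and 205 CPM. RPL22 was at 97.4, 99.4 and 104 CPM in SOX9_WT and at 81.2 to 104 CPM in the mutants, and its fold changes were -0.10, -0.14 and -0.15 (SE 0.14).

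RPS27L had the lowest fold change of all members with at least 10 CPM in each of the 3 contrasts against SOX9_WT. RPS27L, also known as a p53 target gene, encodes a close paralog of RPS27. It stood at 47.1, 69.8 and 39.6 CPM in GFP, 50.8, 51.0 and 45.4 in SOX9_WT, 44.0, 44.8 and 41.0 in M228, 43.6, 42.0 and 40.9 in M303 and 46.0, 41.6 and 39.9 in M379. All M228 and all M303 libraries lay below SOX9_WT, and 1 M379 library overlapped it. The fold changes were -0.18, -0.22 and -0.21 (SE 0.16), and without GFP library 2 the edgeR adjusted p values were 0.494, 0.344 and 0.388. RPS27 itself stood at 288, 248 and 287 CPM in SOX9_WT and 270 to 310 CPM in the mutants.

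**Figure D4:**
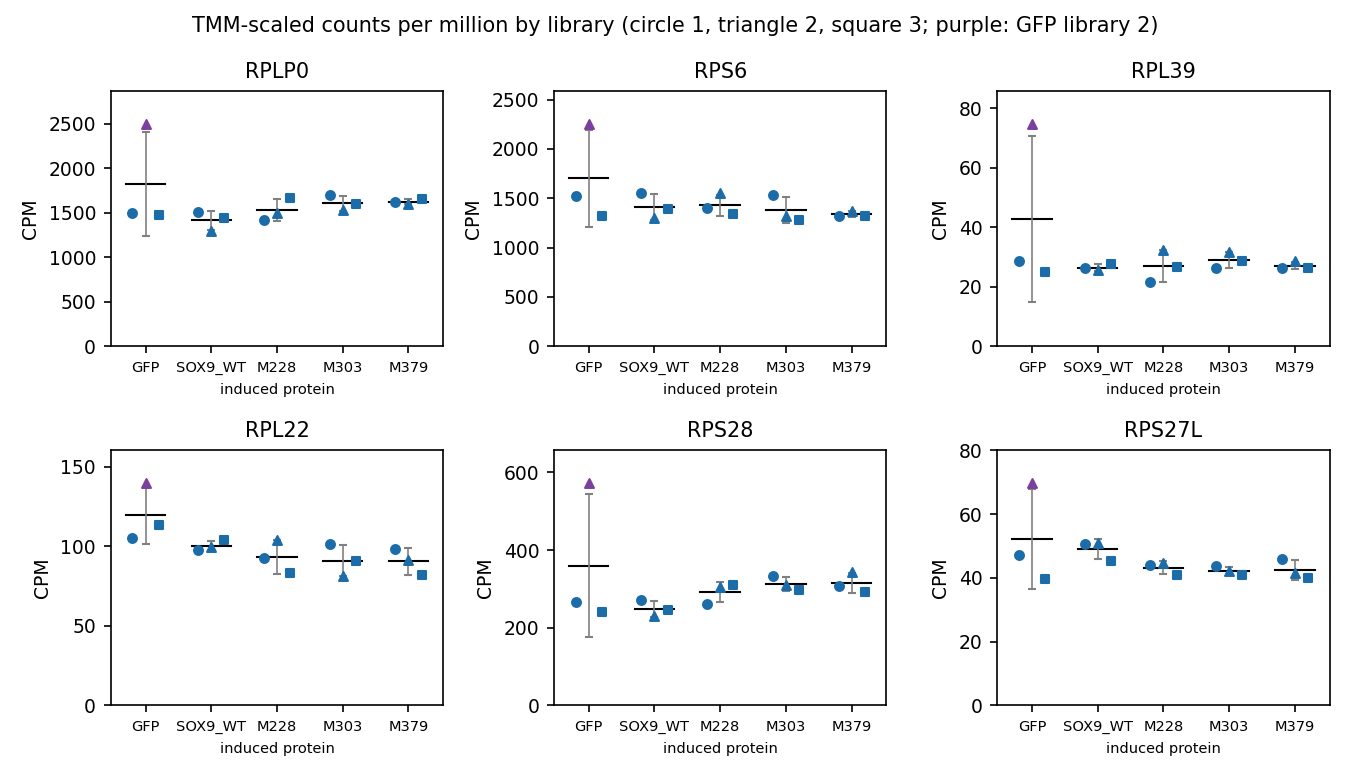
TMM-scaled CPM (y axes, starting at 0) of 6 ribosomal protein genes in the 3 libraries of each group (x axes), with means as bars and SD as whiskers (n = 3) and GFP library 2 in purple. RPLP0, RPS6, RPL39 and RPS28 show GFP library 2 far above the rest, RPS28 is lowest in SOX9_WT among the induced SOX9 groups, and RPS27L is 45.4 to 51.0 CPM in SOX9_WT and 39.9 to 46.0 CPM in the mutants.

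The paralog pairs were compared within libraries, where scaling cancels. RPS27L per RPS27 was 0.180 ± 0.0237 in SOX9_WT, 0.147 ± 0.0101 in M228, 0.147 ± 0.000668 in M303 and 0.148 ± 0.0195 in M379 (SD, n = 3). In GFP it was 0.157, 0.122 and 0.133 in libraries 1, 2 and 3. The M228 and M303 libraries lay below SOX9_WT, and M379 library 1 at 0.170 lay within its range of 0.158 to 0.205. RPL39L, a paralog of RPL39 first described in testis, was expressed at 11.3 to 16.6 CPM outside GFP library 2. Per RPL39 it was 0.465 ± 0.0547 in SOX9_WT and 0.571 ± 0.0510 in M379 (SD, n = 3). The M379 libraries, at 0.535 to 0.629, lay above those of SOX9_WT at 0.426 to 0.528, while M228 and M303 overlapped SOX9_WT, and RPL39L itself had a fold change of 0.33 ± 0.21 in M379 (log2, SE; edgeR adjusted p = 0.979). RPL22L1, outside the rule by its symbol, is the paralog that RPL22 is known to repress. It was at 22.8, 20.8 and 24.9 CPM in SOX9_WT and 28.1, 35.3 and 27.6 CPM in M228, with no overlap. The fold change in M228 was 0.40 ± 0.26 (log2, SE, edgeR adjusted p = 0.9997). The other mutants held 20.1 to 35.6 CPM. Per RPL22 it was 0.228 ± 0.0162 in SOX9_WT, 0.325 ± 0.0195 in M228, 0.272 ± 0.0422 in M303 and 0.310 ± 0.0957 in M379 (SD, n = 3). GFP libraries 1, 2 and 3 stood at 0.202, 0.374 and 0.244. The part of RPL22 in the level of RPL22L1 was not tested.

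RPS27A, RPL3 and RPL10 were not called in any contrast. RPS27A encodes ubiquitin fused to a ribosomal protein and stood at 520, 490 and 538 CPM in SOX9_WT and 476 to 629 CPM in the mutants. RPL3, at the centre of peptide bond formation, stood at 1276, 1714 and 972 CPM in GFP, 1096, 909 and 987 in SOX9_WT and 969 to 1369 CPM in the mutants. RPL10, which joins the large subunit last, stood at 425, 386 and 400 CPM in SOX9_WT and 375 to 458 CPM in the mutants. All 3 overlapped between SOX9_WT and each mutant.

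Other genes of ribosome production were described by lists. None of the 21 tested translation factors and TOP mRNA genes, 35 assembly factors, 15 RNA polymerase I genes, 18 regulators of mTOR and TOP mRNAs, 15 snoRNA host genes, 15 p53 response genes or 77 mitochondrial ribosomal proteins was called in any of the 7 contrasts of the fit of all libraries. Without GFP library 2, 1 of these genes was called, EIF4EBP1, which encodes the mTOR target that restrains the cap-binding factor eIF4E. It stood at 54.2 ± 5.43 CPM in SOX9_WT and was higher in M303 (70.3 ± 0.470 CPM, log2 0.37 ± 0.083, edgeR adjusted p = 0.0392) and M379 (72.7 ± 0.998 CPM, log2 0.42 ± 0.084, adjusted p = 0.0358), with SD and n = 3 for levels and SE for fold changes. Medians against SOX9_WT in M228, M303 and M379 were 0.067, 0.053 and 0.025 for the translation factors, 0.12, 0.072 and 0.081 for the assembly factors and 0.10, 0.057 and 0.081 for the mitochondrial ribosome. The snoRNA host genes, several of which also start with a TOP tract, had medians of 0.13, 0.15 and 0.25, with 14, 14 and 15 of 15 above 0. The 13 protein genes of the mitochondrial genome lay on the other side, with medians of -0.19, -0.30 and -0.22 and none above 0. The share of reads in these mitochondrial genes ranged from 4.94% to 7.62% in the SOX9_WT libraries and 4.65% to 6.63% in mutant ones, and its part in the members' values was not tested.

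Pseudogenes of ribosomal proteins, to which near-identical reads can be assigned, had medians of 0.075, 0.33 and 0.12 against SOX9_WT over 249 tested genes, and none was called. In M303 they took 3.13 ± 0.223 reads per 100 reads of members and in SOX9_WT 2.78 ± 0.211 (SD, n = 3), with overlapping libraries. The level of processed copies and the assignment of reads between copies cannot be told apart in these counts.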

How the data were processed

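RNA was captured with oligo(dT) and sequenced as paired ends, per the labels' protocols. The deposited values are whole-number counts per gene, made by the authors with featureCounts 2.0.1 on Ensembl 101 gene models, per the file headers. The command in the header sets no strand or multi-mapping option. The submitters' processing notes name STAR 2.7.0a and hg38. Totals per library were 3054755 to 31704249 reads. In the count tables, 3 columns that match no sample were not used.

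Counts were scaled by TMM and filtered with filterByExpr, and 16160 genes were tested by edgeR 4.0.16 quasi-likelihood in R 4.3.3, 1 fit of 15 libraries with 10 residual degrees of freedom. DESeq2 1.42.0 was an alternative. CPM values are TMM-scaled. The SE of an edgeR fold change was derived as its absolute log2 value over the square root of the quasi-likelihood F. Exon overlaps came from the count table's coordinates, principal transcript lengths from GENCODE 29, and start sites from RefSeq (GRCh38.p14). The other alternatives were RLE scaling, TMM without the members, no filter on low counts, a replicate block, a fit of 2 groups alone, removal of the length trend, libraries 2 and 3 only, and each library left out. The length trend removed was that over exon length in the count table. Chosen after seeing the data were the fits against SOX9_WT without GFP library 2 or the GFP group, the members with at most 20% shared exon bases, and the principal transcript length.

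On simulated counts for M228 minus GFP (16160 genes), the test called 45 of 100 genes given a change of 1 on the log2 scale and 85 of 100 given 2. For M303 minus SOX9_WT it called 50 and 95 of 100. Of the genes left unchanged, 7 and 6 were called in these 2 contrasts. The simulation held no change below 1 and no trend over transcript length. It therefore does not show how often shifts of the members' size would be called. No 2 libraries of a group agreed within sampling noise, since chi-square per degree of freedom over tested genes was 3.74 or more in all 15 pairs. Same-numbered libraries deviated together (every correlation over 0.1) for M228, M303 and M379 against GFP, where the lowest correlations were 0.163, 0.189 and 0.262. The limit of 0.1 was missed in the other contrasts. The lowest correlations there were 0.057, 0.098 and 0.067 for M228, M303 and M379 against SOX9_WT, and -0.023 for SOX9_WT against GFP.

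The members, lists and tests were chosen with earlier results of these data known. Named genes were the stalk, the 5S particle, RPSA, RPS6, RPS27A, RPL3, RPL10, RPL22 and the pairs of RPS27 and RPL39 with their paralogs, the 3 highest and 3 lowest members of at least 10 CPM per contrast, per kb and in GFP library 2, and 6 paralogs and fusion genes outside the rule. RPS4X, RPS26, RPL13, RPS3A, RPL35 and LYZ, where not covered by that rule, were named after their values were seen. Some genes that the rule names are not reported here.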

Additional observations from a re-analysis of the deposited data

How the results depend on the processing

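The member medians kept their direction under every alternative except the removal of GFP library 2. The length trend removed in one alternative was that over exon length in the count table. Removal of the trend over principal transcript length was not run, so these fits do not show whether the medians would keep their direction under it. Leaving out 1 library at a time, they ranged from -0.65 to -0.092 for SOX9_WT minus GFP, -0.50 to 0.035 for M228 minus GFP, -0.46 to 0.049 for M303 minus GFP and -0.48 to 0.032 for M379 minus GFP, and the positive ends are the fits without GFP library 2. Against SOX9_WT they ranged from 0.069 to 0.17 in M228, 0.094 to 0.16 in M303 and 0.081 to 0.16 in M379. The number of members called was 0 in all fits but the one without a filter on low counts, which called 2 in SOX9_WT minus GFP and 1 in M228 minus GFP.

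Counts of all called genes moved more. In the order SOX9_WT, M228, M303, M379 minus GFP and M228, M303, M379 minus SOX9_WT, they were 5, 39, 19, 6, 92, 62 and 20 in the fit reported. They were 67, 163, 89, 50, 227, 170 and 71 with DESeq2, 180, 282, 212, 74, 320, 273 and 137 without the filter, and 79, 181, 85, 17, 319, 259 and 106 with the replicate block, which called no member. The fit of 2 groups alone gave 0, 3, 2, 1, 278, 121 and 156, and libraries 2 and 3 alone gave 1, 9, 4, 3, 21, 7 and 1. Removing the length trend gave 11 for SOX9_WT, 62 for M228 and 11 for M379 minus GFP, and 147 and 103 for M228 and M303 minus SOX9_WT. M379 minus GFP had 3 calls with RLE scaling and 3 with TMM without the members. Without the GFP group the last 3 contrasts had 283, 229 and 100 calls. Leaving out 1 library gave 0 to 40, 15 to 143, 4 to 31, 2 to 12, 27 to 269, 9 to 219 and 1 to 89. The cause of these shifts was not tested.

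Some single genes changed sign, among them RPL39, whose fold changes against GFP were at the low end of the members and lay just above 0 or at 0.13 without GFP library 2. With the length trend removed, RPL7A was 0.0092 in SOX9_WT minus GFP, RPL17 0.081 and RPL41 0.087 in M228 minus GFP, RPL29 0.038 in M303 minus GFP and RPL41 0.074 in M379 minus GFP. RPL17 in M228 minus GFP was 0.013 with the replicate block, and RPL10 in M228 minus SOX9_WT was 0.061 in libraries 2 and 3. With 1 library left out, SOX9_WT minus GFP ran from -0.41 to 0.074 for RPL17, -1.01 to 0.0089 for RPL39, -0.30 to 0.11 for RPL7A and -0.27 to 0.20 for RPS27L. M228 minus GFP ran from -0.21 to 0.13 for RPL15, -0.25 to 0.23 for RPL17, -0.996 to 0.013 for RPL39 and -0.26 to 0.19 for RPL41. M303 minus GFP ran from -0.20 to 0.14 for RPL15, -0.28 to 0.21 for RPL29, -0.88 to 0.13 for RPL39 and -0.23 to 0.12 for RPS23. M379 minus GFP ran from -0.093 to 0.39 for RPL17, -0.97 to 0.040 for RPL39, -0.25 to 0.20 for RPL41 and -0.22 to 0.13 for RPS23. RPL10 ran from -0.049 to 0.023 in M228 minus SOX9_WT and RPS6 from -0.12 to 0.036 in M303 minus SOX9_WT. The lowest library total, 3054755 reads in GFP library 1, limits the poorly counted members most.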
